A study of Mus musculus with 8 samples.

Results

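The genes described here are Yipf6, Tmem80, Deaf1, Acin1, 1700123O20Rik and Tada1, which are 6 of 21631 protein-coding genes on autosomes and chromosome X. They were chosen by the fold of Zbtb7a peaks, mapped by chromatin immunoprecipitation with sequencing, for a very strong peak at an end of the gene, so their Zbtb7a folds are a description and support nothing. The chromatin came from kidney cortex of mice aged 2 months with the genotype Mta2flx/flx, in which both Mta2 alleles carry loxP sites. All 4 groups share that genotype, age and tissue: antibodies against Zbtb7a, Mta2 and Mbd3, and Input chromatin, each with 2 libraries. The labels name no Cre line for them. The data used were 1 peak list per factor, which stands for both mice, so no peak's value has an SD or an n and no test of a difference was made. A fold below is the enrichment of a peak over background that the authors' peak caller gave, and it is compared only within its own list, through ranks and percentiles.

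Zbtb7a, also called LRF, is a zinc finger protein with a BTB domain that represses fetal globin genes in red blood cells and that can bring corepressors to DNA. Mta2 and Mbd3 are subunits of NuRD, a complex that joins a nucleosome remodelling ATPase to histone deacetylases and has no strong preference for a DNA sequence of its own. A peak shows where crosslinked chromatin was enriched, and in a tissue it cannot be assigned to 1 cell type.

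The 6 genes lie at 4 loci. Yipf6 encodes a membrane protein of the Golgi (mm10, chromosome X, 98936316 to 98949021). Tmem80, a membrane protein gene of the ciliary transition zone (chromosome 7, 141328130 to 141337156), lies inside the span of Deaf1, a transcription factor gene with a SAND domain (chromosome 7, 141297176 to 141338869). Acin1, which encodes an RNA-binding splicing factor (chromosome 14, 54642161 to 54686965), overlaps the start of 1700123O20Rik (54686171 to 54690742) on the other strand. Tada1 encodes a subunit of the SAGA histone acetyltransferase complex (chromosome 1, 166379167 to 166393621). As Tmem80 and Deaf1 share 1 strongest peak, and Acin1 and 1700123O20Rik another, the 6 genes give 4 peaks and not 6.

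The bases before the starts of these genes are shown because the strongest Zbtb7a peaks span them. RefSeq (GRCm38.p6, same coordinates as mm10) gave promoter windows for 5 of the 6 genes, of 250 bases before and 50 after each start, and Tada1 was not matched. Below are the 250 bases before a start, read 5′ to 3′ on the gene's strand, with CCGA and its reverse complement TCGG in capitals. These are chrX:98937531-98937780 (plus strand) for Yipf6, chr7:141327880-141328129 (plus) for Tmem80, chr7:141327726-141327975 (minus) for the inner start of Deaf1, chr14:54686966-54687215 (minus) for the outer start of Acin1 and chr14:54685921-54686170 (plus) for 1700123O20Rik.
Yipf6: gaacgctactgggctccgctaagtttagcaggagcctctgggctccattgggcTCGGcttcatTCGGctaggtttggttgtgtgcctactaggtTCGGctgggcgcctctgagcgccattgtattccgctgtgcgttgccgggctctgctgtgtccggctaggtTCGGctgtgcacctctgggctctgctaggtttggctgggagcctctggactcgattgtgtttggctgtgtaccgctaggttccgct
Tmem80: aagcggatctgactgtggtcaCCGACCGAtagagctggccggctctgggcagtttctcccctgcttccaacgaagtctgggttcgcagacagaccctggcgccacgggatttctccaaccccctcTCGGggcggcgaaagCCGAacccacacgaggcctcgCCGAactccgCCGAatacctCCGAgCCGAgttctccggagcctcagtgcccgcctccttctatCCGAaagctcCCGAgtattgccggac
Deaf1: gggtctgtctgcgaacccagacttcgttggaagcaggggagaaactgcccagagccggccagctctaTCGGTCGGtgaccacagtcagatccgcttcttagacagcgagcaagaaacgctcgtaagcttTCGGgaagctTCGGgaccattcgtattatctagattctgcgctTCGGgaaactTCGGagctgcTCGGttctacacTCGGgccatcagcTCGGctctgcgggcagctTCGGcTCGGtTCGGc
Acin1: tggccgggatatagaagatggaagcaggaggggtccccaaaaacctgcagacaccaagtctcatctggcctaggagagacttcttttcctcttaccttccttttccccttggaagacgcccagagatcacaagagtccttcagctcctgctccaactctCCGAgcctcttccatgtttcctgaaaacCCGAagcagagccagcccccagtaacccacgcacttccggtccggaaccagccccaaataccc
1700123O20Rik: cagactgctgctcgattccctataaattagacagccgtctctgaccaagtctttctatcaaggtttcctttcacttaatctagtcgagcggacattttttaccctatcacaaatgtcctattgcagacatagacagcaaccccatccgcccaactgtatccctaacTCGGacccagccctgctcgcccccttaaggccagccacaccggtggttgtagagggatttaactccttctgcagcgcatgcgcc
The Tmem80 and Deaf1 sequences face away from each other and overlap. The Zbtb7a summit falls on base 217 of the printed Tmem80 sequence, between copies of the motif, and on none of the other printed stretches.

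The strongest Zbtb7a peaks of the 4 loci ranked 2 to 5 by fold among 124616 Zbtb7a peaks, and it is for such peaks that the genes were chosen. The fold was 362 at Yipf6, 346 at Tmem80 and Deaf1, 299 at Acin1 and 1700123O20Rik and 282 at Tada1. By the deposited −log10 q they ranked 6, 3, 5 and 4. The one stronger peak by fold, outside the set, was at Ski, which encodes a repressor of TGF-beta signalling (fold 465). Just below the set stood the peak at Cdc27, a subunit gene of the anaphase-promoting complex, with fold 262, and then peaks at Etnk1 (fold 250), Commd3 (225), Zc3h4 (218) and Gna11 (172). Fold fell without a gap from the set to these neighbours, so the limit between them is one of choice.

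Each of the 4 Zbtb7a peaks was several times broader than the median of 393 bp in the list. Widths were 1838 bp at Yipf6 (chromosome X, 98936649 to 98938486), 2269 bp at Tmem80 and Deaf1 (chromosome 7, 141326584 to 141328852), 1767 bp at Acin1 and 1700123O20Rik (chromosome 14, 54685660 to 54687426) and 1766 bp at Tada1 (chromosome 1, 166378497 to 166380262). Broad intervals were usual for strong peaks: the other 96 of the 100 strongest Zbtb7a peaks had a median width of 2065.5 bp.

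Where the summit lay relative to the gene differed. At Tmem80 the Zbtb7a summit was 34 bp from the transcription start, on its upstream side. The same summit lay inside Deaf1, between the start at 141327725 and the upper end of that gene, so for Deaf1, against the rule of choice, the strongest peak was not at an end of the RefSeq span. The peak that lay at the upper end of Deaf1, 61 bp from it and 19 bp from the start of the span of Eps8l2, had a Zbtb7a fold of 17.1. At Acin1 the summit was 109 bp from the nearest of 4 annotated starts, inside the gene. At Tada1 it was 53 bp inside the lower end of the span. At Yipf6 it was 518 bp upstream of the start and 947 bp inside the lower end of the gene's span, which reaches beyond that start.

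Mta2 and Mbd3 peaks overlapped the Zbtb7a peak at all 4 loci. That is common: of all Zbtb7a peaks 86.6% overlapped a peak of both other lists, and of the 100 strongest 100% did. The Mta2 fold was 21.7 at Yipf6, 16.9 at Tmem80 and Deaf1, 12.4 at Acin1 and 1700123O20Rik and 33.5 at Tada1. The Mbd3 fold was 23.5, 19.1, 12.7 and 33.4 at the same loci. By fold both NuRD subunits thus ordered the loci alike, with Tada1 highest and Acin1 lowest, whereas by Zbtb7a fold Tada1 was the lowest of the 4. By −log10 q Tada1 was again highest and Acin1 lowest for both subunits, but Yipf6 stood below Tmem80 and Deaf1. For Zbtb7a by −log10 q, Tada1 stood above Acin1 and Yipf6, so its lowest place holds by fold only.

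The loci were chosen by Zbtb7a fold, so a lower place in the other lists was all but fixed in advance. Within their own lists these NuRD peaks stood lower by fold than the Zbtb7a peaks did in theirs, with Tada1 nearest to the top. In the Mta2 list of 149855 peaks they stood at percentile 93.0 for Yipf6, 87.9 for Tmem80 and Deaf1, 80.2 for Acin1 and 1700123O20Rik and 98.3 for Tada1, at ranks 10436, 18134, 29710 and 2601. In the Mbd3 list of 134248 peaks the percentiles were 94.8, 91.4, 82.4 and 98.4. By fold none of the 4 reached the top 1% of either list, but by −log10 q Tada1 did in both, at percentile 99.5 for Mta2 and 99.5 for Mbd3. Of the other 96 among the 100 strongest Zbtb7a peaks, 60 reached the top 1% by fold for Mta2 and 56 for Mbd3, and their median percentiles were 99.6 in both lists. Over all other Zbtb7a peaks with both partners the medians were 66.9 for Mta2 and 61.6 for Mbd3, so the 4 loci lay above a typical shared peak and below most of the other 96. The nearest neighbours in rank were like the 4: the 6 other peaks among the 10 strongest had a median Mta2 percentile of 93.8 and a median Mbd3 percentile of 93.9, with 5 of the 6 below 99 for Mta2, whereas ranks 11 to 100 had a median Mta2 percentile of 99.7. A lower NuRD percentile is therefore not particular to the 4 loci. Among peaks at gene ends alone the Mta2 percentile was 81.0 at Yipf6, 67.2 at Tmem80 and Deaf1, 50.8 at Acin1 and 1700123O20Rik and 95.7 at Tada1.

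**Figure D1:**
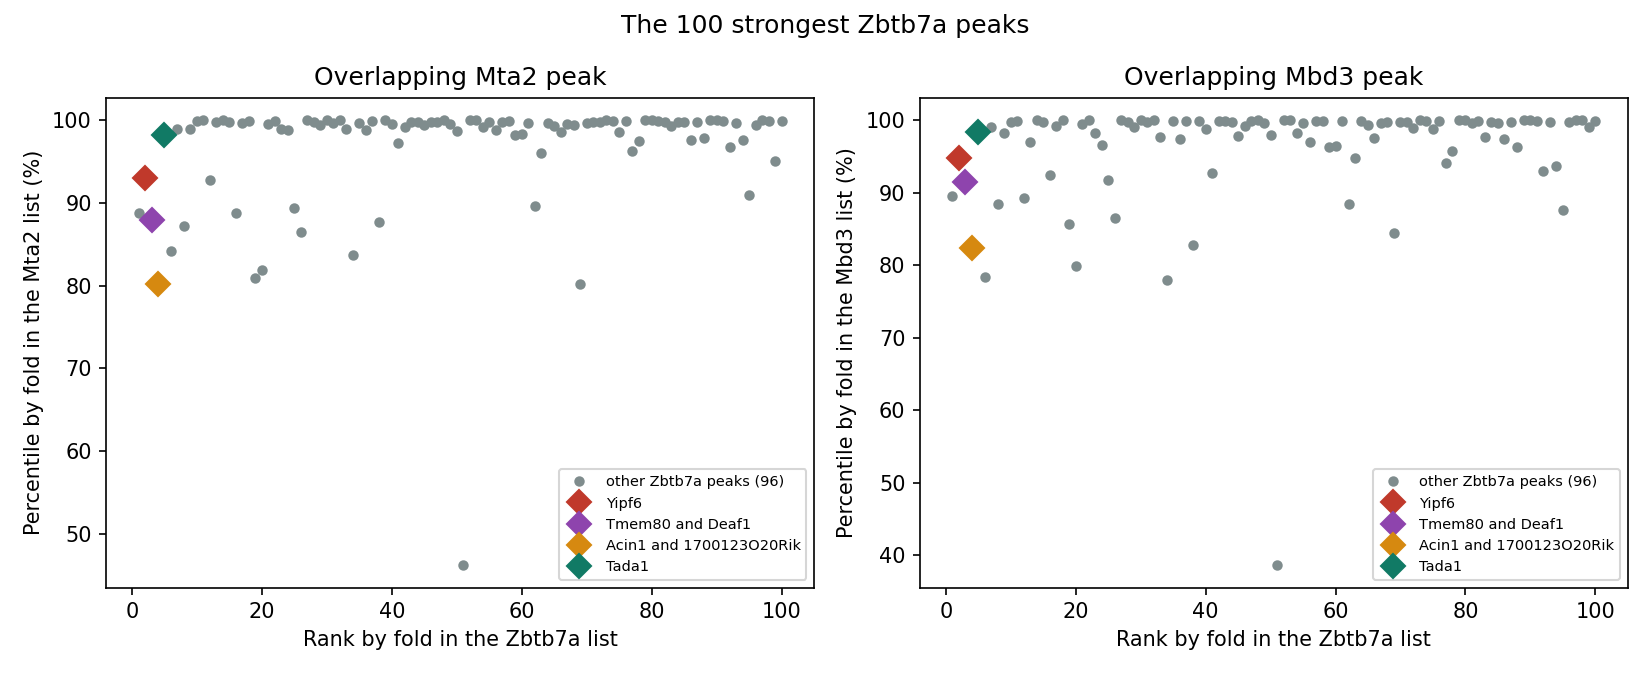
Percentile by fold of the overlapping Mta2 peak (left) and Mbd3 peak (right) against rank by fold in the Zbtb7a list, 1 point per Zbtb7a peak among the 100 strongest. Coloured diamonds are the 4 loci, which lie at 80.2 to 98.3 for Mta2 and 82.4 to 98.4 for Mbd3, while of the other 96 peaks (grey) 60 lie at 99 or above for Mta2 and 56 for Mbd3.

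Summits of Zbtb7a did not coincide with those of the NuRD subunits at these loci. The Zbtb7a summit lay 867 bp from the Mta2 summit at Yipf6, 198 bp at Tada1, 135 bp at Acin1 and 1700123O20Rik and 106 bp at Tmem80 and Deaf1. From the Mbd3 summit it lay 861, 199, 122 and 99 bp away in the same order. The Mta2 and Mbd3 summits meanwhile were 6 bp apart at Yipf6, 1 bp at Tada1, 13 bp at Acin1 and 1700123O20Rik and 7 bp at Tmem80 and Deaf1. By called summit, both NuRD subunits therefore peaked together in each locus and Zbtb7a apart from them, within the same broad interval. With 1 list per factor the error of a summit position is not known. Neither the distances of 99 to 199 bp at the other loci nor those of 867 and 861 bp at Yipf6 can thus show separate binding places.

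Distances over 100 bp between Zbtb7a and Mta2 summits, found at all 4 loci, occurred at 15.1% of all Zbtb7a peaks with both partners and at 19.0% of the 100 strongest, the 4 included. For Mbd3 such a distance was found at 3 of the 4 loci, against 12.8% of all these peaks and 18.0% of the 100 strongest. The median distance from Zbtb7a to Mta2 was 28 bp over all other shared peaks and 21.5 bp over the other 96 strongest. The 6 other peaks among the 10 strongest, which are Ski and the 5 genes just below the set, had distances of 68 to 1172 bp with a median of 124 bp, against a median of 19 bp for ranks 11 to 100. Displaced summits were thus shared with the immediate neighbours in rank and are not particular to the 4 loci. Mta2 and Mbd3 summits over 100 bp apart occurred at 9.87% of all these peaks, at 2.00% of the 100 strongest and at none of the 4 loci.

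**Figure D2:**
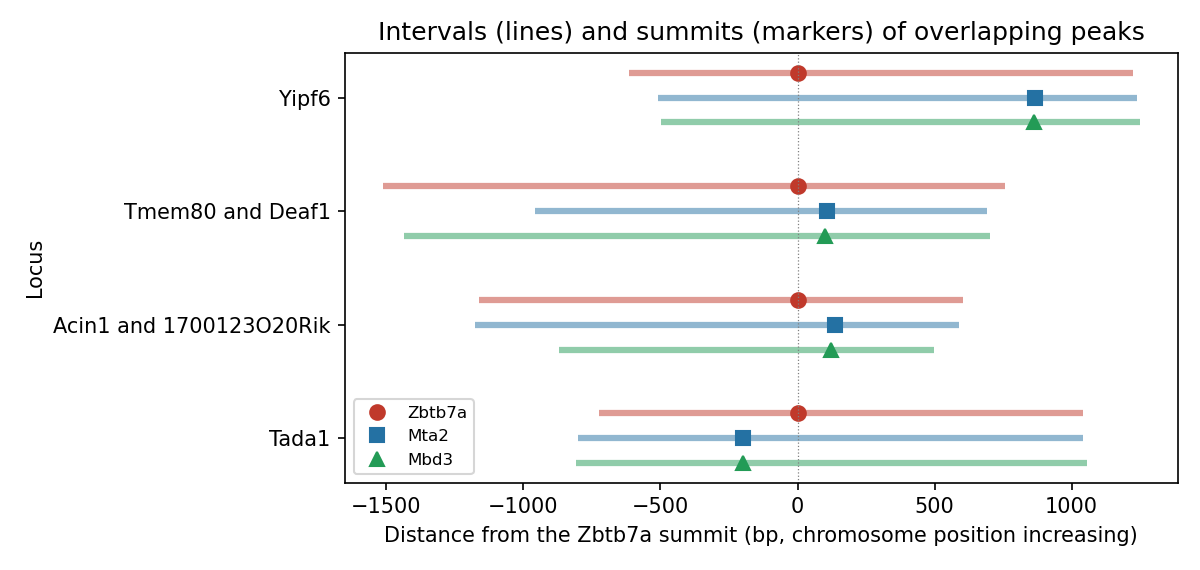
Intervals (lines) and summits (markers) of the overlapping Zbtb7a, Mta2 and Mbd3 peaks at the 4 loci, in bp from the Zbtb7a summit. Mta2 and Mbd3 markers stand together, 1 to 13 bp apart, and 99 to 867 bp from the Zbtb7a marker.

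Relative to starts, the NuRD summits at Yipf6 fell 349 bp (Mta2) and 343 bp (Mbd3) downstream of the start, with Zbtb7a upstream of it. At Tmem80 the order was the same, with Mta2 72 bp and Mbd3 65 bp downstream. Relative to the inner start of Deaf1, on the other strand, all 3 of these summits lay upstream, with Zbtb7a nearest to it. At Acin1 the Mta2 summit was 8 bp and the Mbd3 summit 13 bp from an annotated start, and the Zbtb7a summit lay deeper in the gene. At Tada1 the Mta2 and Mbd3 summits lay 145 and 146 bp outside the lower end of the span, and the Zbtb7a summit inside it. The side on which Zbtb7a lay was therefore not the same at all loci.

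Away from these peaks the loci differed in how much else they held. Within the gene spans and 20 kb on either side lay 36 Zbtb7a, 41 Mta2 and 39 Mbd3 summits. All 6 genes had at least 1 summit of each list there, as had 85.0% of all protein-coding genes for Zbtb7a, 86.4% for Mta2 and 85.5% for Mbd3. Yipf6 had a single summit of each factor in a window of 52.7 kb, all of them in the peak described above, and no other gene lay within 20 kb of its Zbtb7a summit. Around Tmem80 and Deaf1 lay 19 Zbtb7a, 23 Mta2 and 20 Mbd3 summits in 81.7 kb, around Acin1 and 1700123O20Rik 10, 10 and 13 in 88.6 kb, and around Tada1 6, 7 and 5 in 54.5 kb. Other genes within 20 kb of the strongest summits were Eps8l2 (10815 bp from the summit at Tmem80), Gm29776 (4223 bp) and the pseudogene Gm8776 (5096 bp) near that at Acin1, and Pogk (14390 bp) near that at Tada1.

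**Figure D3:**
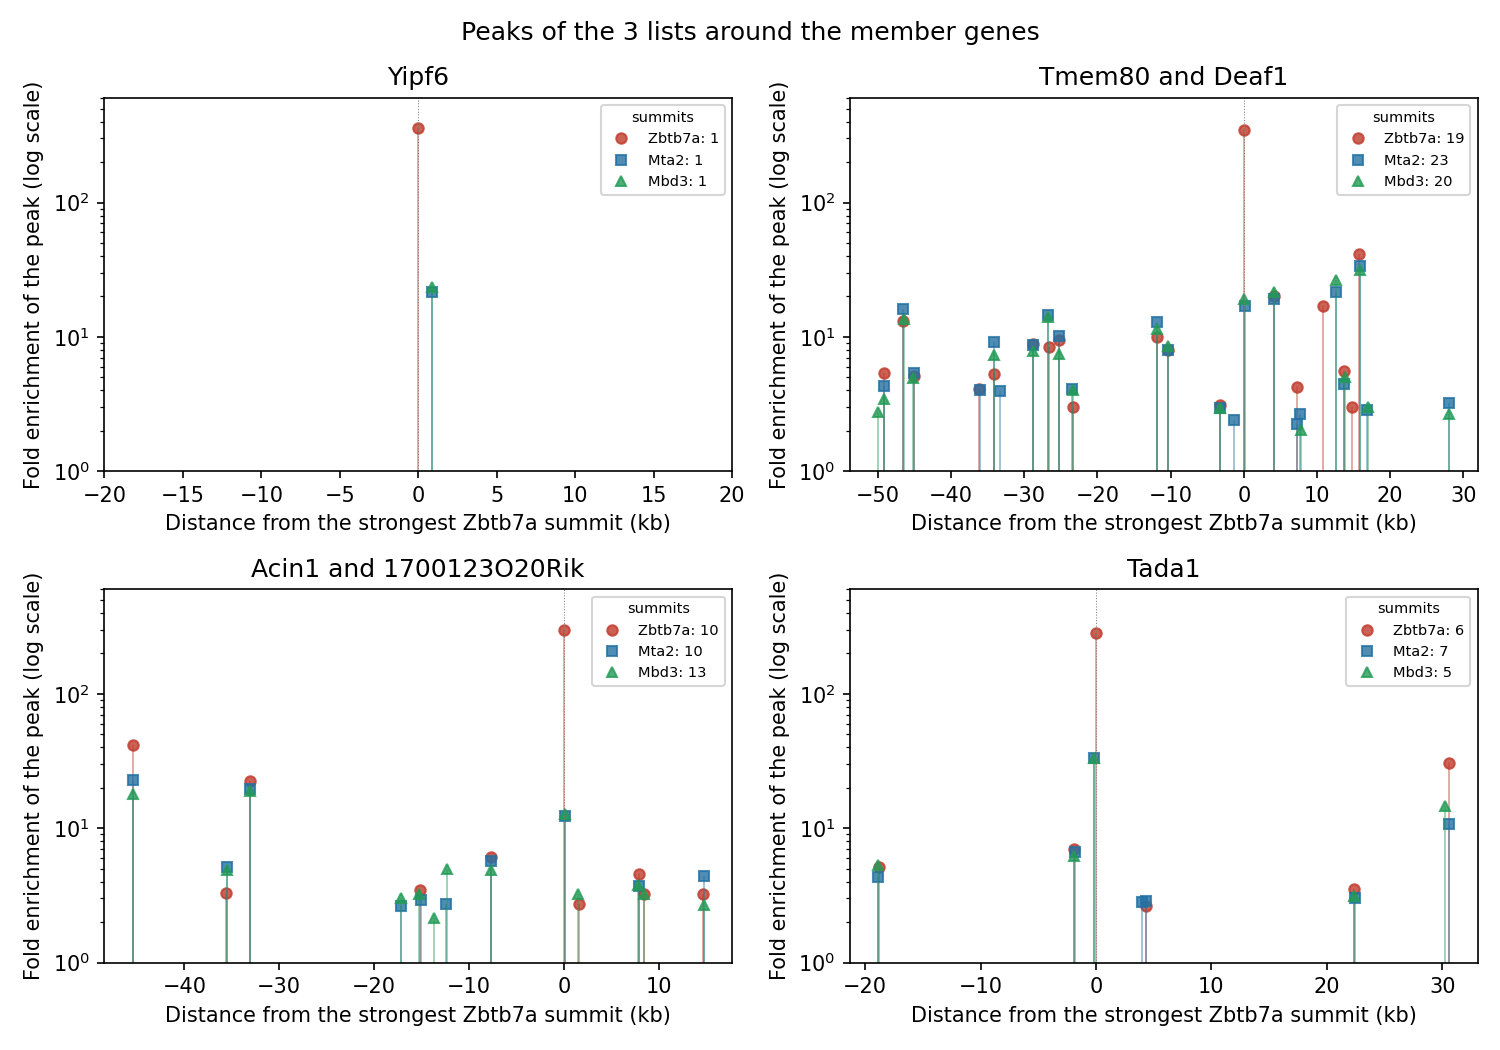
Fold enrichment (log scale) of each peak around the genes against its summit's distance from the strongest Zbtb7a summit, in kb, for the 3 lists. At each locus 1 Zbtb7a peak of fold 282 to 362 stands above all other peaks, of which no Zbtb7a peak exceeds 41.8.

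The other 32 Zbtb7a peaks of the loci had folds from 2.65 to 41.8 with a median of 5.35, close to the median of 5.00 over the list. Of the 32, 27 overlapped both a Mta2 and a Mbd3 peak, against 86.6% of all Zbtb7a peaks. The median distance was 26 bp to Mta2 (29 peaks) and 22 bp to Mbd3 (29 peaks), against 28 and 26 bp over all other shared peaks. A distance over 100 bp was found for 3 of the 29 from Mta2 and 4 of the 29 from Mbd3, beside 15.1% and 12.8% of all shared peaks. In these measures the other peaks of the loci were close to the list as a whole. The broadest of the 32 was the peak at the upper end of Deaf1, where the Zbtb7a summit stood 1780 bp from the Mta2 summit (fold 21.8) and 1774 bp from the Mbd3 summit (fold 26.6).

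The strongest of the other Zbtb7a peaks lay 641 bp from an end of Cdh24, a cadherin gene next to Acin1 named after its value was seen. It had a fold of 41.8, a Mta2 fold of 22.8 and a Mbd3 fold of 18.1. Its summit also lay within 1 kb of the lower end of Acin1, whose highest Mta2 and Mbd3 folds at an end are those of this peak. At this place all 3 summits lay within 19 bp of the Zbtb7a summit, and the Mta2 fold was above that at the start of Acin1. A peak inside Eps8l2, beyond Deaf1, had a Zbtb7a fold of 41.4, a Mta2 fold of 34.0 and a Mbd3 fold of 31.5. The Mta2 and Mbd3 folds there were the highest around Tmem80 and Deaf1. At Pogk, which adjoins Tada1, a peak 46 bp from the gene's end had a Zbtb7a fold of 30.8, a Mta2 fold of 10.7 and a Mbd3 fold of 14.5. Inside Acin1, at its pair of inner starts, Zbtb7a had a fold of 22.5, Mta2 19.6 and Mbd3 18.9. Around Tmem80 and Deaf1 and around Acin1 and 1700123O20Rik the strongest Zbtb7a peak was thus not at the place of the strongest Mta2 or Mbd3 peak.

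The promoter windows were searched for known motifs on both strands. GACCC, the core of known Zbtb7a sites, was searched with its reverse complement GGGTC and was found in 5 of the 9 promoter windows of the 5 matched genes, against 43.9% of all 32851 windows. The window of Yipf6 had none. Some windows overlap, the inner Deaf1 window with that of Tmem80 and pairs of windows at Acin1, so a site can be counted more than once. The GACCC site in the Tmem80 window is the same as that in the inner Deaf1 window. GGGCGG or CCGCCC, the GC box, was in 4 of the 9 windows (35.7% of all windows), CCGGAA or TTCCGG, an ETS core, in 2 (14.9%) and ATTGG or CCAAT in 1 (37.4%). AAGATGG or CCATCTT, letters of YY1 sites, was in 3 windows, all of Acin1 (6.34%). GCATGCGC or GCGCATGC, letters of NRF1 sites, was in 1 window, that of 1700123O20Rik (2.71%). ACTACA or TGTAGT (10.3%), CACGTG (7.15%) and TCTCGCGA or TCGCGAGA (0.995%) were in none. There were 4 words of 8 bases that occurred in a window of every one of the 3 loci with windows, each in 2.33% to 3.52% of all windows.

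A short motif, CCGA or TCGG on either strand, was counted after the sequences had been seen, so its counts in these genes are a description. The window at the inner start of Deaf1 held 15 copies, the highest count of all 32851 windows, and that of Tmem80 held 13, a count reached or passed by 6 windows. As these windows overlap, they share some copies. The Yipf6 window held 7 copies, matched or passed by 0.557% of windows, and the windows at the outer starts of Acin1 held 3 and 5. The 1700123O20Rik window held 2, the window at the upper end of Deaf1 2 and those at the inner starts of Acin1 1 and 0. The mean over all windows was 1.19.

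Every copy contains a CpG, so counts rise with CpG content. Of the CpG sites in a window, the share within the motif was 50% at the inner start of Deaf1, 38.9% at Yipf6, 37.1% at Tmem80, 27.3% and 38.5% at the outer starts of Acin1, 18.2% at 1700123O20Rik and 12.5% at the upper end of Deaf1. Over all windows it was 9.56%. The share was thus above the average at every one of these windows. At the inner starts of Acin1 it was 1 copy among 4 CpG sites in one window and 0 among 5 in the other.

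Outside the set the mean count was highest in the windows with the strongest Zbtb7a summits, with the highest counts in a subset of them. Zbtb7a peaks whose summit lay in a promoter window were ranked by fold without the 6 genes, 1 window per peak. The windows of the members were instead taken by gene. Among these only the Tmem80 window holds the summit of the strongest Zbtb7a peak of its locus, so the members and these windows are not chosen alike. The top 25, with folds of 90.7 to 262, had 5.36 ± 4.19 copies (mean ± SD over 25 windows) and 16.1% of CpG sites in the motif. Their median was 4 copies and 10 of the 25 held 7 or more, while others held few, such as Kmt2c with 3 and Tlk2 with 0 (both named after their values were seen). No test of these rank groups was made. Ranks 26 to 50 had 3.40 ± 1.76 copies (median 3) and 10.7%, and ranks 101 to 200 had 2.48 ± 1.76 (median 2) and 7.92%. The median share per window was 16.7% in the top 25, 11.5% at ranks 26 to 50 and 7.06% at ranks 101 to 200. The number of CpG sites changed little, from 33.3 to 31.8 and 31.3 on average. For the top 25 Mta2 peaks the mean was 3.12 ± 1.74 copies with 7.76% of CpG sites, and for the top 25 Mbd3 peaks 2.64 ± 1.58 with 8.87%. Windows of neighbouring or divergent genes can share bases, so these windows are not independent replicates.

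**Figure D4:**
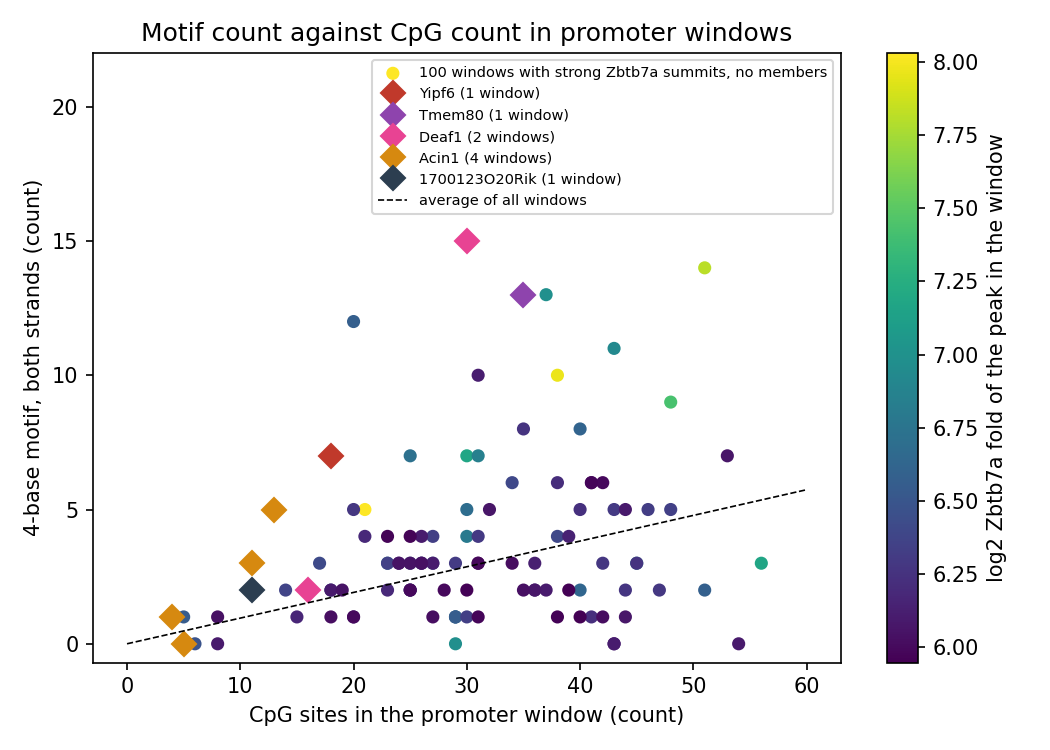
Copies of the motif (CCGA or TCGG, both strands) against CpG sites in promoter windows. Diamonds are the windows of the 5 matched genes, circles are 100 windows outside the set with the strongest Zbtb7a summits, coloured by log2 fold, and the dashed line is the average share of 9.56%. The windows at the inner Deaf1 start, Tmem80 and Yipf6 lie high above that line. Of the diamonds only the Tmem80 window holds the summit of the strongest Zbtb7a peak of its locus, whereas every circle holds a Zbtb7a summit.

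Genes related to the members by complex or family were examined for summits within 1 kb of a gene end. Of 50 related genes in 5 lists, without the members, 45 had Zbtb7a, 45 Mta2 and 45 Mbd3 there, against 65.6%, 67.2% and 65.5% of all protein-coding genes. The median fold of the occupied related genes was 17.1 for Zbtb7a, against 14.4 over all occupied genes, with 15.4 against 14.9 for Mta2 and 14.5 against 13.8 for Mbd3. Summits of all 3 lists lay at an end of the same 45 genes (62.5% of all genes) and of no list at the other 5 (30.3%). Of the 6 members, 4 had all 3 at an end: Tmem80, Acin1, 1700123O20Rik and Tada1. Yipf6 and Deaf1 had Zbtb7a alone there, because the Mta2 and Mbd3 summits of their peaks lay farther than 1 kb from the end. Apart from Ski, no Zbtb7a fold at a related gene exceeded 67.2.

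Of the other 19 SAGA genes, 17 had all 3 factors at an end. The highest Zbtb7a folds were 31.8 at Tada3, which links acetyltransferase modules, and 29.4 at Trrap, the large scaffold subunit, while Sgf29 and Taf9b had no summit there. At Tada1 itself the Mta2 fold stood at percentile 94.5 of occupied genes and the Mbd3 fold at 96.1. In the YIP1 family of Golgi membrane proteins 7 of 8 were occupied, with Zbtb7a folds of 29.1 at Yipf4 and 29.1 at Yif1b and no summit at Yipf7. In the list of ASAP, PSAP and exon junction complex genes all 8 other than Acin1 were occupied, led by Casc3 (23.2) and Rnps1 (19.2). Of the other 8 SAND domain genes 6 were occupied, led by Ski (465) and its paralogue Skil (67.2), with no summit at Sp110 or Sp140. All 7 other transition zone TMEM genes were occupied, led by Tmem67 (28.4) and Tmem138 (22.9).

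The genes nearest to the members in all 3 folds were sought among 13508 genes with each factor at an end, by Euclidean distance in log2 fold over the 3 lists. Ski was nearest to Yipf6 (distance 0.64) and to Tmem80 and Deaf1 (0.45), with folds of 465, 17.6 and 17.4 for Zbtb7a, Mta2 and Mbd3. Cdc27 was nearest to Acin1 and 1700123O20Rik (0.37), with folds of 262, 14.5 and 10.9. Etnk1, an ethanolamine kinase gene, was nearest to Tada1 (0.30), with folds of 250, 37.3 and 38.1. As Zbtb7a folds of this size were few, the choice was narrow.

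As a check of the tissue label, 7 genes of kidney cortex, among them Slc34a1, Lrp2 and Umod, had Zbtb7a at an end in 7 cases and Mta2 and Mbd3 in 6 each. Of 4 liver genes, Zbtb7a was at 0, Mta2 at 1 (Alb) and Mbd3 at 0, and of 4 blood genes each factor was at 1 (Cd3e). Over all protein-coding genes such a summit was found at 65.6% for Zbtb7a, 67.2% for Mta2 and 65.5% for Mbd3. Beside these shares, and with so few genes, the check is weak. Occupancy of an end is not expression.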

How the data were processed

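Chromatin crosslinked with DSG and formaldehyde was precipitated for Mta2, Mbd3 or Zbtb7a, or kept as Input, and sequenced in 8 libraries of 4 groups. Bowtie2, deepTools, MACS2, bedtools and the mm10 build were used, per the submitters' processing notes. Tool versions were not given in the sources used here, nor were parameters. Each deposited list follows the narrowPeak layout without a header and holds the fold enrichment (a ratio the authors' peak caller gave), the deposited −log10 q, a deposited score that was not used, and summit offsets. How the libraries of a group were combined is not stated, read depth was not analysed here, and a place without a peak cannot be read as unbound.

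Summits were placed at interval start plus offset. Peaks overlapped when they shared 1 bp, and the strongest overlapping peak was taken. Only peaks on autosomes and chromosome X were kept, and list sizes, ranks and percentiles refer to these. Percentiles are the share of such a list with a lower fold. Gene spans and starts came from RefSeq GRCm38.p6. Summits in the span or within 20 kb were counted. The named genes are the members, genes within 20 kb of their strongest Zbtb7a summit, Zbtb7a ranks 1 and 6 to 10, the 2 leading and up to 2 unoccupied genes of each related list, and the genes most alike in fold. The members, lists and motifs were chosen with earlier results of these data known, and the CCGA motif, the rank groups and the percentile limit of 90 after the values were seen. A further marker of the tissue check is not reported here. Functions were tested on simulated data. Python 3.11.15, pandas 2.3.3, numpy 2.4.6 and matplotlib 3.10.9 were used.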

Additional observations from a re-analysis of the deposited data

How the results depend on the processing

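No paired analysis was possible because 1 list per factor stands for both mice, and for the same reason no replicate could be left out. With windows of 50 kb the summits around the genes numbered 59 for Zbtb7a, 66 for Mta2 and 63 for Mbd3, while windows of 10 kb, a −log10 q minimum of 10 and placing by interval kept each count within 1.5 times. The 4 loci had overlapping Mta2 and Mbd3 peaks also when a reciprocal overlap of 50% was required or a −log10 q of 10. With summits required within 100 bp of each other the number was 0. Percentiles by −log10 q in place of fold, which put Tada1 in the top 1% of both lists, were 92.7, 94.1, 87.6 and 99.5 for Mta2 at Yipf6, at Tmem80 and Deaf1, at Acin1 and 1700123O20Rik and at Tada1, and 94.0, 96.1, 88.7 and 99.5 for Mbd3. Among peaks at gene ends only they were 81.0, 67.2, 50.8 and 95.7 for Mta2 and 87.8, 77.8, 56.1 and 96.9 for Mbd3. That population holds stronger peaks, which lowers percentiles by construction. Counts of related genes stayed within 1.5 times under windows of 0.5 kb and 3 kb and a −log10 q minimum of 10.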

Other observations

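Among the other 96 of the 100 strongest Zbtb7a peaks, 13 overlapped a Mta2 peak below percentile 90, as 2 of the 4 loci did. Of these 13 peaks, 9 had their summit in a promoter window. The windows belonged to Cdc27, Commd3, Eif4g3, 2010320M18Rik, Creb1, Mark2, BC031361, 4930488L21Rik and Ube2m, all named after their values were seen. They held 5 to 14 copies of CCGA or TCGG with a mean of 8.89, and 27.4% of their CpG sites lay in the motif. The 31 windows with a Mta2 peak at percentile 90 or above held 0 to 10 copies with a mean of 3.32 and 10.7% of CpG sites, at a like CpG content (32.4 and 31.1 sites on average). At 4930488L21Rik the Zbtb7a fold was 94.7 while Mta2 stood at percentile 46.2 and Mbd3 at 38.6, with 12 copies among 20 CpG sites. As with the 9 windows, the 31 cover only peaks with a summit in a promoter window. The groups were not matched for Zbtb7a fold, and outside the set the mean count was highest in windows with the strongest Zbtb7a summits. The comparison was made because of what the 6 genes showed and has no test.

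By −log10 q the second Zbtb7a peak of the list was near Lrrc4c (named after its value was seen), with a value of 21831 and a fold of 3.63, at rank 85679 by fold. Regions of artefact signal were not filtered out here, so whether this peak marks binding was not tested.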
